A study of Mus musculus with 8 samples.

Results

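The mouse genes for chemokine ligands were taken as all genes whose name in the array files is Ccl, Cxcl, Cx3cl or Xcl followed by a number alone. This gave 33 genes of 27687 genes and unnamed probes on the array. They were carried by 42 probes, and each of the 9 genes with more than 1 probe was represented by its brightest probe over all 8 arrays, so the choice used no difference between the groups. Heart RNA came from male mice aged 12 weeks, 4 wild type (WT) and 4 with PKR2 overexpression, and each heart was hybridised to its own 1-colour array. PKR2 is taken to be prokineticin receptor 2, which binds the secreted prokineticins. The promoter, cell type and line behind the overexpression were not given in the sources used here. The gene's own probe (Prokr2) was well above background on 0 WT and 0 PKR2 arrays and need not match the overexpressed transcript, so it does not check the labels. Levels are log2 signal relative to the 75th percentile of the same array, so 0 is that percentile and 1 unit is a factor of 2. Differences are PKR2 minus WT, and means are given ± SD with n = 4 arrays.

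Chemokines are small secreted or membrane-tethered proteins that guide leukocytes through G protein-coupled receptors, and are sorted into CC, CXC and smaller families by the spacing of their first cysteines. Inflammatory ligands are mostly switched on by cytokines through NF-kB and interferon-activated factors, while homeostatic ligands are made continuously and place cells within tissues. In the heart, stromal and vascular cells are known sources of Cxcl12, and resident macrophages of several CC ligands and of Pf4, the gene of platelet factor 4.

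Promoter sequences from the RefSeq annotation (GRCm38.p6) were available for 24 of the 33 genes, and 4 are shown because they represent the classes that follow: an interferon-induced ligand, the homeostatic ligand with the brightest probe, the ligand that varied most between arrays, and a neutrophil-attracting ligand not detected in any heart. Each runs 5′ to 3′ over the 250 bases before the annotated start, on the gene's strand. Capitals mark matches to the NF-kB consensus, to the interferon response core (2 copies of GAAA with any 2 bases between them) or to TATAAA, searched on both strands. The windows are chr5:92348890-92349139 (minus strand) for Cxcl10, chr6:117168285-117168534 (plus) for Cxcl12, chr5:95956689-95956938 (plus) for Cxcl13 and chr5:90903649-90903898 (plus) for Cxcl2.
Cxcl10: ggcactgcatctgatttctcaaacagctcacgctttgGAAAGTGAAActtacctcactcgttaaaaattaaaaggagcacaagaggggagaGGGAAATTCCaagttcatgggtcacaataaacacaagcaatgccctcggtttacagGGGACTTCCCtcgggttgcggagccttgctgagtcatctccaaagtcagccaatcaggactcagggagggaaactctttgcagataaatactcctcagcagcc
Cxcl12: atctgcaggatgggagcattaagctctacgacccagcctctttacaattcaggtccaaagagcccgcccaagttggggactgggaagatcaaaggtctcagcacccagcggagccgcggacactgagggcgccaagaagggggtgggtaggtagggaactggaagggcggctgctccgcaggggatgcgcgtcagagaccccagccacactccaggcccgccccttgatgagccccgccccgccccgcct
Cxcl13: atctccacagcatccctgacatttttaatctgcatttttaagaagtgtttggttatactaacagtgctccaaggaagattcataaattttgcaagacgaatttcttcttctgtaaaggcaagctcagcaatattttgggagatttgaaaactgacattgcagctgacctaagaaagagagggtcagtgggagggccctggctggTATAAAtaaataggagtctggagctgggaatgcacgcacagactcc
Cxcl2: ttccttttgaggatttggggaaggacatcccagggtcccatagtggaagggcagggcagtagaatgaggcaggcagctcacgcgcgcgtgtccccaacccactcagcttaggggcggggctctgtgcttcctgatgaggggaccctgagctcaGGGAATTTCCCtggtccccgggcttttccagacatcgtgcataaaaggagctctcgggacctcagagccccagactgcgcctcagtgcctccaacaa

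Cxcl10 held 2 NF-kB matches and 1 interferon response core, Cxcl2 held 2 NF-kB matches that overlap each other, Cxcl13 held 1 TATAAA, and Cxcl12 held none of the 3 motifs. Among the 24 genes with a window, 5 held the NF-kB consensus (Ccl9, Ccl20, Cxcl1, Cxcl2 and Cxcl10), against 3.9% of 32851 promoter windows. The interferon response core was found in 3 (Ccl19, Cxcl10 and Cxcl14), against 2.98% of all windows, and TATAAA in 8, against 12.4%. Of the 5 genes with the NF-kB consensus, 3 were measured well enough in heart to be tested. A match is a string of letters in this window and was not tested as a binding site.

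Genes entered the test if their probe exceeded background clearly in 3 or all 4 hearts of either group. This held for 22 of the 33 ligand genes (66.7%). Counted the same way, 15672 of all 27687 genes and unnamed probes entered it (56.6%), and counted by single probes 55.4% of 41040. The chart of detection by role shows that 20 were above background in every heart. The classes detected in full were the homeostatic CXC ligands (3 of 3), the monocyte-attracting CC ligands (6 of 6), the eotaxins (2 of 2), the membrane-bound ligands (2 of 2) and platelet factor 4 (1 of 1). Of the 4 neutrophil-attracting CXC ligands only Cxcl1 was tested, above background on 3 WT and 3 PKR2 arrays, while Cxcl2, Cxcl5 and Cxcl15 were not well above background on any array. The dendritic and T helper cell ligands were absent from the tested genes: Ccl17 was above background on 2 arrays, and Ccl1, Ccl20 and Ccl22 on none. Ccl3, a macrophage inflammatory ligand, and Ccl28, a mucosal homeostatic ligand, were each above background on 1 array. Cxcl11, an interferon-induced ligand, and Xcl1, the lymphotactin of activated T and NK cells, were above background on none. A probe not well above background gives only an upper limit on its transcript.

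**Figure D1:**
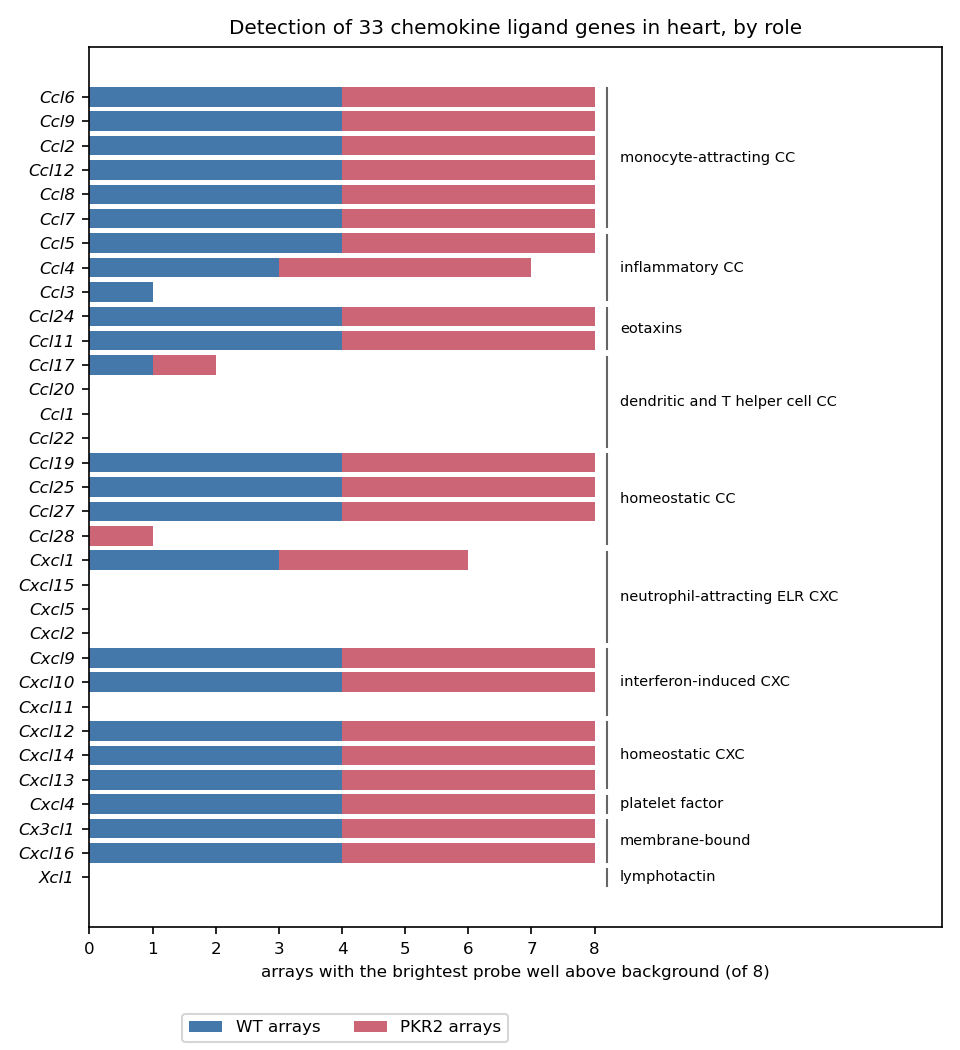
Number of arrays, of 8, on which the brightest probe of each of the 33 chemokine ligand genes was well above background, with WT arrays in blue and PKR2 arrays in red, and the genes ordered by role. Bars of 8 fill the monocyte-attracting, eotaxin, homeostatic CXC and membrane-bound classes, and 8 genes have no bar.

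Detection also differed between neighbours on the chromosome. By probe position in the files' build (mm8), 24 of the ligand genes lay in 6 groups of neighbours under 1 Mb apart. On chromosome 11, 5 of the 6 genes between 81853343 and 81993088 (Ccl2, Ccl7, Ccl11, Ccl12, Ccl8 and Ccl1) were above background in every heart. In the second group on chromosome 11, from 83341989 to 83480804, this held for 3 of 5 genes (Ccl5, Ccl9 and Ccl6, next to Ccl3 and Ccl4). On chromosome 5, between 91836379 and 91980767, it held for 1 of 5 genes: Pf4, which the array names Cxcl4, was above background on all 8 arrays, while its neighbours Cxcl5, Cxcl15 and Cxcl2 were not on any.

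The arrays differed in overall brightness:the 75th percentile of signal ran from 40.9 on WT 2 to 770 on PKR2 1 before scaling, and the share of spots well above background from 48.3% to 67.1% on the same arrays. A single scan range was used for PKR2 4, WT 2 and WT 4 and an extended one for the others. Slide and position were read from the code that ends each sample title, which the labels do not explain, and slides were renumbered. On this reading both groups shared slides 5 and 6, with 1 array each. All PKR2 arrays but only WT 1 sat at position 4 of their slide. Every result by slide or position rests on this reading. Levels correlated at r of 0.965 to 0.988 between groups and 0.971 to 0.991 within them, across features, which are not replicates. The 8 cardiomyocyte markers were all tested, with sums of 2390 to 3144 in WT and 2490 to 3737 in PKR2 hearts.

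The comparison of the groups addresses whether the hearts that overexpress the receptor differ in chemokine expression. None of the 22 tested ligand genes passed the threshold: the adjusted p of every one was 0.9997 (limma, Benjamini-Hochberg adjustment over 15672 features), and the threshold was passed by 0% of all features. At an unadjusted p under 0.05 there was 1 ligand gene, Ccl11, which was lower in PKR2 hearts, against 2.42% of all features (1.38% lower). Over the alternative fits this count ran from 0, with array position as a covariate, to 6, with arrays weighted by their reliability (Ccl11, Ccl19, Ccl24, Ccl25, Cxcl14 and Cxcl4). With slide as a fixed block the 1 gene was Cxcl14, and Ccl11 was above 0.05 in that fit and in 3 others. Of 15672 features, 380 were at an unadjusted p under 0.05 in the fit reported. The number was 590 with array position, 1649 with array weights and 938 with slide as a fixed block. Mean signal was lower in PKR2 hearts for 13 and higher for 9 (from 9 lower with array position as a covariate to 18 lower without WT 1), that is 59.1% lower against 49.6% of all features, and the median difference was -0.22 against 0.0015 over all features. The 95% interval extended by a median of 0.54 on each side for the ligand genes and 0.48 for all features, and for 18 of the 22 it lay wholly within 1 log2 unit of 0. Among the 22, WT 4 was the highest array for 7, WT 2 for 5 and PKR2 2 for 4, and PKR2 1 was the lowest for 7 and the highest for 0. The sign held in every alternative fit and within both shared slides for 5 of the 22, Ccl11, Ccl19, Ccl5, Ccl6 and Cx3cl1. The difference of Cx3cl1 was under 1 SE. Neither this count nor that of the intervals within 1 log2 unit was made over all features. In whole hearts, fewer cells of a type and less RNA per cell cannot be told apart, and this holds for every value that follows.

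**Figure D2:**
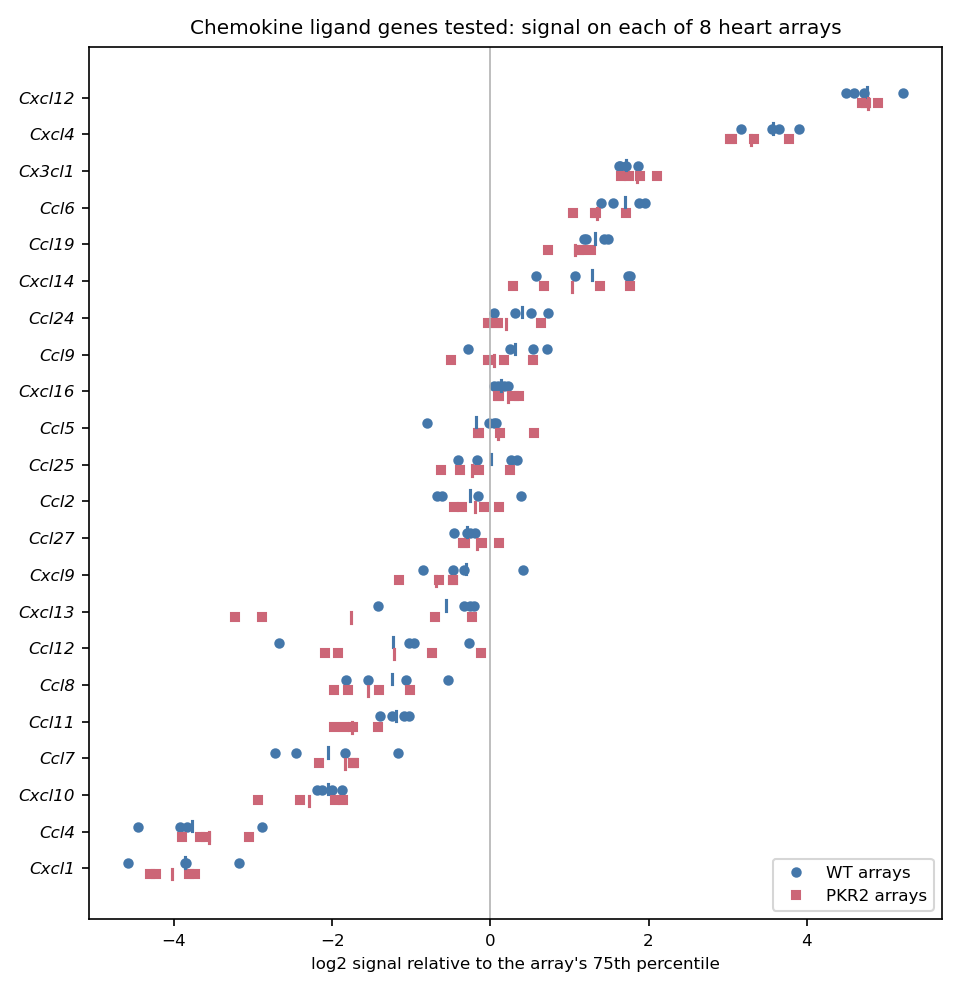
Signal of each tested chemokine ligand gene on each array, as log2 relative to the array's 75th percentile, with WT arrays as blue circles, PKR2 arrays as red squares and short lines at the group means. The symbols of the groups are mixed for every gene but Ccl11, and spread widest for Cxcl13, from -3.24 to -0.21. Positions of different genes reflect different probes and do not rank transcript amounts.

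Among the homeostatic CXC ligands, Cxcl12 encodes the ligand of Cxcr4 that retains progenitor cells and guides vessel growth. Cxcl12 read 4.60, 4.73, 5.22 and 4.50 on WT 1 to 4 and 4.75, 4.75, 4.90 and 4.70 on PKR2 1 to 4. The PKR2 arrays lay inside the WT range, with WT 3 highest and WT 4 lowest of all. Means were 4.76 ± 0.32 and 4.78 ± 0.087, and the difference was 0.018 (SE 0.18, 95% interval -0.39 to 0.42). A second Cxcl12 probe, for another transcript variant, gave -0.046. Among the Cxcl12 receptor genes, Cxcr4 differed by 0.24 (SE 0.31) and Ackr3, which encodes its scavenging receptor, by -0.014 (SE 0.19).

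Cxcl14, an ancient ligand made by epithelia and fibroblasts, read 0.57, 1.77, 1.07 and 1.74 in WT and 1.38, 1.77, 0.29 and 0.68 in PKR2 hearts. Both groups held high and low arrays, and the difference of -0.26 (SE 0.37) was smaller than the SD of either group (0.58 and 0.67). It was -0.79 within slide 5, -1.06 within slide 6, -0.92 (SE 0.20) with slide as a fixed block and -0.75 with array weights, but 0.46 with array position as a covariate and 0.32 without the arrays scanned at a single range. No fit gave Cxcl14 an adjusted p under 0.05.

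Cxcl13, the ligand of Cxcr5 that draws B cells into follicles and into fat-associated lymphoid clusters, had the largest difference of the tested ligands and the widest spread. Its levels were -0.21, -0.26, -1.42 and -0.33 in WT hearts and -3.24, -2.89, -0.23 and -0.70 in PKR2 hearts. PKR2 1 and PKR2 2 lay far below all other arrays, while PKR2 3 lay among the WT arrays, so the groups overlapped. The difference of -1.21 (SE 0.66, 95% interval -2.68 to 0.27) came with a range over the arrays of 3.03, wider than in 98.4% of all features. It was 1.19 between the 2 arrays of slide 5 and -0.38 between those of slide 6. With slide as a fixed block it was 0.41, and with arrays weighted by their reliability -0.030.

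The low arrays of Cxcl13 were also low in other genes. Cxcr5, its receptor gene, read -1.20, -3.23, -2.96 and -1.99 in WT and -3.05, -4.22, -1.46 and -1.72 in PKR2 hearts. Ms4a1, which encodes the B cell antigen CD20, read -0.12, -0.77, -0.46 and -0.46 in WT and -1.94, -2.36, 0.29 and 0.34 in PKR2 hearts. PKR2 1 and PKR2 2 were the lowest arrays for Ms4a1, and PKR2 2 was the lowest for Cxcr5, where PKR2 1 lay among the lower WT arrays.

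Marker lists were summarised as the sum over their tested genes of linear signal, in multiples of each array's 75th percentile, and as a score, the mean deviation from each gene's average over the arrays. Of 6 B cell markers 5 were tested, Cd79a being above background on no array, all 5 had a lower mean in PKR2 hearts, and the sum ran from 1.73 to 3.44 in WT and from 0.954 to 3.35 in PKR2 hearts. Of 11 adipocyte markers 10 were tested, all 10 with a lower mean, against 49.6% of all features. At an unadjusted limma p under 0.05 there were 8 of them, against 2.42% of all features (1.38% lower), and 0 past the adjusted threshold. All 8 were lowest on PKR2 1 and PKR2 2, so they are not 8 separate results. The sums of the adipocyte markers were 752 to 1190 in WT and 460 to 800 in PKR2 hearts. Their score was -2.10 on PKR2 1 and -1.81 on PKR2 2, against 0.43 and 0.28 on PKR2 3 and PKR2 4, and -0.045 on WT 3 against 1.03 to 1.13 on the other WT arrays. WT 3 was the lowest WT array in Cxcl13 and in the adipocyte and B cell scores, but not in Cxcr5, Ms4a1 or the mesothelial score. All 8 mesothelial markers were tested and had a lower mean in PKR2 hearts, with sums of 15.5 to 17.6 in WT and 10.6 to 15.6 in PKR2 hearts, and scores of -0.47 and -0.40 on PKR2 1 and PKR2 2 and from 0.055 to 0.25 elsewhere. The part of B cells, fat and mesothelium in the Cxcl13 difference was not tested.

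**Figure D3:**
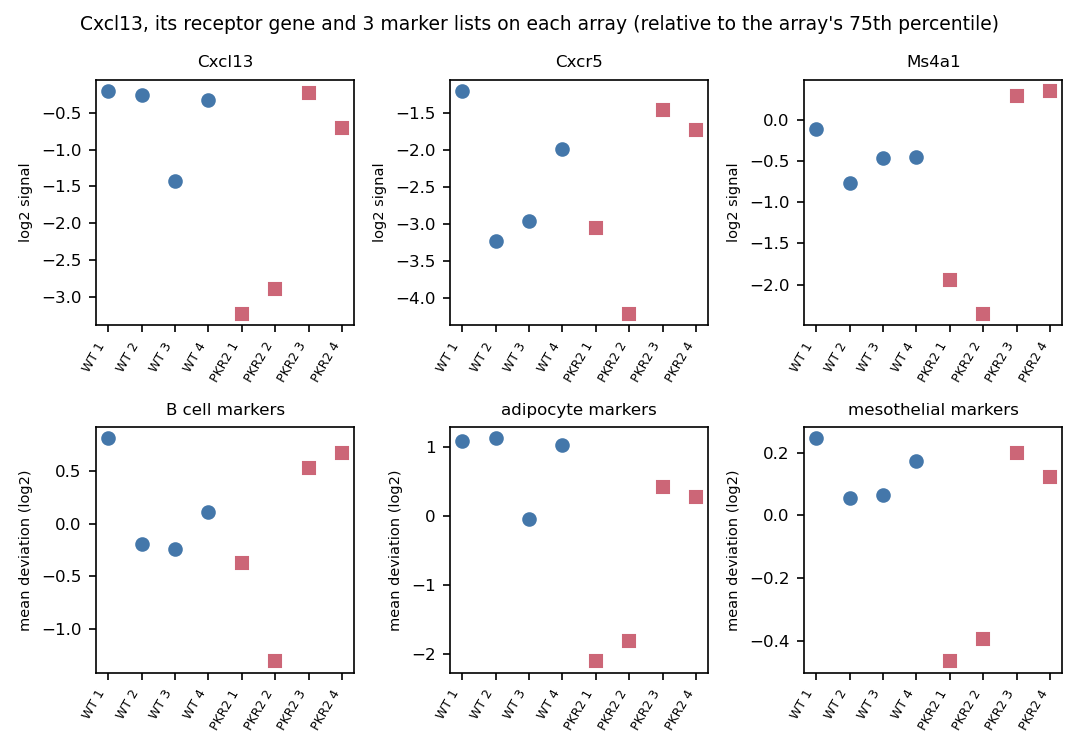
Cxcl13, its receptor gene Cxcr5 and the B cell gene Ms4a1 (upper panels, log2 signal relative to the array's 75th percentile) and the scores of the B cell, adipocyte and mesothelial markers (lower panels, mean log2 deviation) on each array, WT as blue circles and PKR2 as red squares. PKR2 1 and PKR2 2 are the lowest points for Cxcl13, Ms4a1 and the adipocyte and mesothelial scores.

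Cxcl4 is the array's name for Pf4, a granule chemokine of platelets that tissue macrophages also express. It read 3.16, 3.66, 3.91 and 3.56 in WT and 3.06, 3.77, 3.02 and 3.33 in PKR2 hearts. Its 3 highest arrays were WT 3, PKR2 2 and WT 2, so each group held high and low hearts. The difference was -0.27 (SE 0.22).

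The platelet markers, 7 of 7 tested and including Pf4 itself, had sums of 13.1 to 23.4 in WT and 10.5 to 20.4 in PKR2 hearts and a median difference of 0.070. Ppbp, which encodes another platelet chemokine outside the name pattern used here, differed by 0.070 (SE 0.39).

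Ccl24, eotaxin 2, is made by alternatively activated macrophages. It read 0.32, 0.73, 0.51 and 0.046 in WT and -0.025, 0.65, 0.077 and 0.099 in PKR2 hearts. WT 2, PKR2 2 and WT 3 were again the 3 highest arrays. The difference was -0.20 (SE 0.21), and -0.0073 at a second, dimmer probe.

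The same 3 arrays were the highest for 5 of the 12 macrophage markers (Adgre1, Cd163, Mrc1, Lyve1 and C1qc) and not for the other 7. WT 3 was the lowest array for 2 of those, Csf1r at 0.83 and Mertk at -1.73. WT 2, WT 3 and PKR2 2 were also the 3 highest arrays for genes of other lists. Among these were the fibroblast genes Col1a1, Dcn and Lum, the cardiomyocyte genes Ryr2 and Myl2, and Nfkb1. The share of all features with these 3 highest arrays was not counted. Cd163 and Lyve1, given here on every array, both come from the 5 markers listed above. Cd163, a scavenger receptor gene, read 1.21, 2.39, 2.36 and 1.40 in WT and 1.20, 2.43, 1.72 and 1.32 in PKR2 hearts. Lyve1, a hyaluronan receptor gene of resident macrophages and of lymphatic vessels, read 0.38, 2.06, 1.91 and 1.29 in WT and 0.22, 2.28, 1.58 and 1.05 in PKR2 hearts. Of the 12 macrophage markers, all tested, 9 had a lower and 3 a higher mean in PKR2 hearts. Their median difference was -0.053, with none at an unadjusted p under 0.05. Their sums were 26.5 to 43.3 in WT and 26.6 to 45.2 in PKR2 hearts, nearly the same range. The part of macrophage content in the differences of Pf4 and Ccl24 was not tested.

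**Figure D4:**
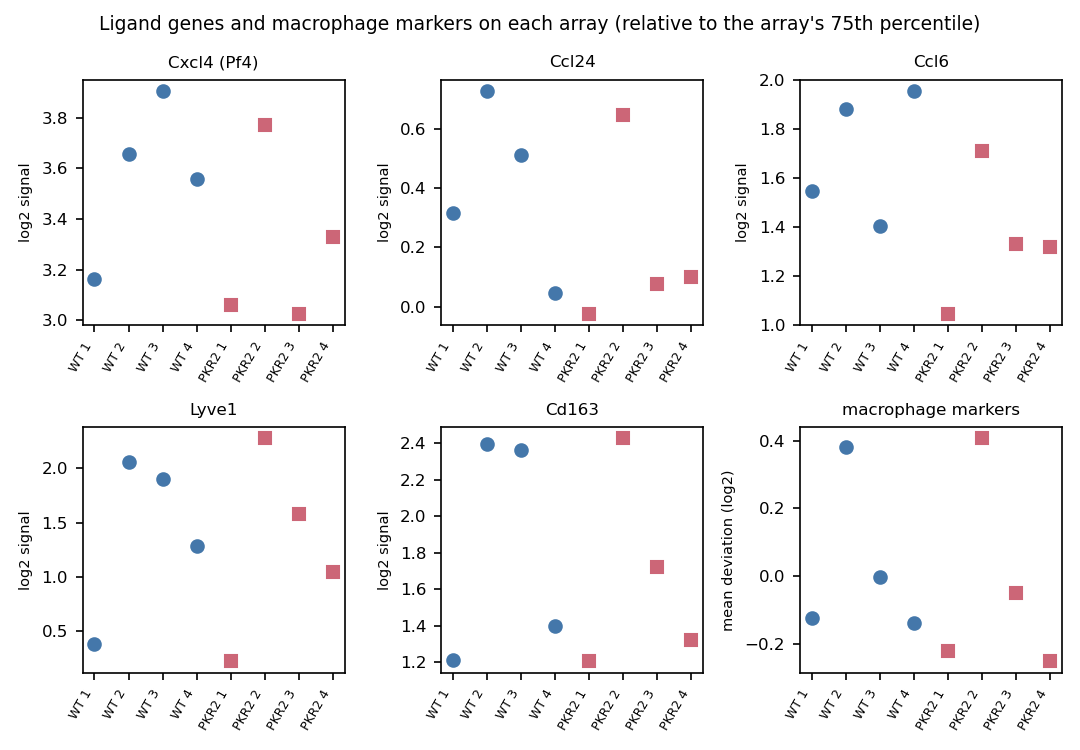
Cxcl4 (Pf4), Ccl24 and Ccl6 (upper panels) and the macrophage genes Lyve1 and Cd163 with the score of 12 macrophage markers (lower panels) on each array, as log2 signal relative to the array's 75th percentile or mean log2 deviation, WT as blue circles and PKR2 as red squares. WT 2, WT 3 and PKR2 2 are the 3 highest arrays for Cxcl4, Ccl24, Lyve1 and Cd163, and Ccl6 follows another order, with WT 4 highest. In the score WT 2 (0.38) and PKR2 2 (0.41) stand out, while WT 3 (-0.0028) lies close to PKR2 3 (-0.049). Lyve1 and Cd163 are among the 5 of 12 macrophage markers with the same 3 highest arrays as Cxcl4, and the markers without them are not drawn singly.

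Ccl11, eotaxin 1, is a ligand of Ccr3 that attracts eosinophils and is made by fibroblasts and smooth muscle. It was the 1 tested ligand gene whose groups did not overlap, against 1.61% of all features (0.861% lower and 0.753% higher in PKR2 hearts). Ccl11 read -1.39, -1.03, -1.09 and -1.25 in WT and -1.97, -1.73, -1.43 and -1.85 in PKR2 hearts. Every PKR2 array lay below every WT array, though PKR2 3 at -1.43 came close to WT 1 at -1.39. Means were -1.19 ± 0.16 and -1.75 ± 0.23, a difference of -0.55 (SE 0.17, 95% interval -0.93 to -0.18), or 0.681-fold. The limma p was 0.00857 before adjustment and 0.9997 after it, so Ccl11 did not pass. The difference was -0.33 within slide 5, -0.61 within slide 6, -0.35 with array position as a covariate and -0.22 in the authors' deposited values. Its probe lies at chromosome 11, 81878765 to 81878824 (mm8). Ccr3 was above background on 3 arrays and not tested, and the 7 fibroblast markers, all tested, had a median difference of -0.060 with sums of 169.9 to 295 in WT and 160 to 303 in PKR2 hearts. The 6 mural cell markers, which include smooth muscle genes, had a median difference of 0.080, with sums of 79.5 to 93 in WT and 96.7 to 104 in PKR2 hearts. Their scores overlapped, from -0.239 to 0.135 in WT and from -0.037 to 0.245 in PKR2 hearts. The mean was higher in PKR2 hearts for 4 and lower for 2, Cspg4 (-0.12) and the smooth muscle gene Myh11 (-0.19). Only Acta2, the smooth muscle actin gene, was higher on every PKR2 array than on any WT array, against 0.753% of all features. Acta2 differed by 0.36 (SE 0.13), with an unadjusted limma p under 0.05 and an adjusted one of 0.9997. The part of either cell type in the Ccl11 difference was not tested.

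**Figure D5:**
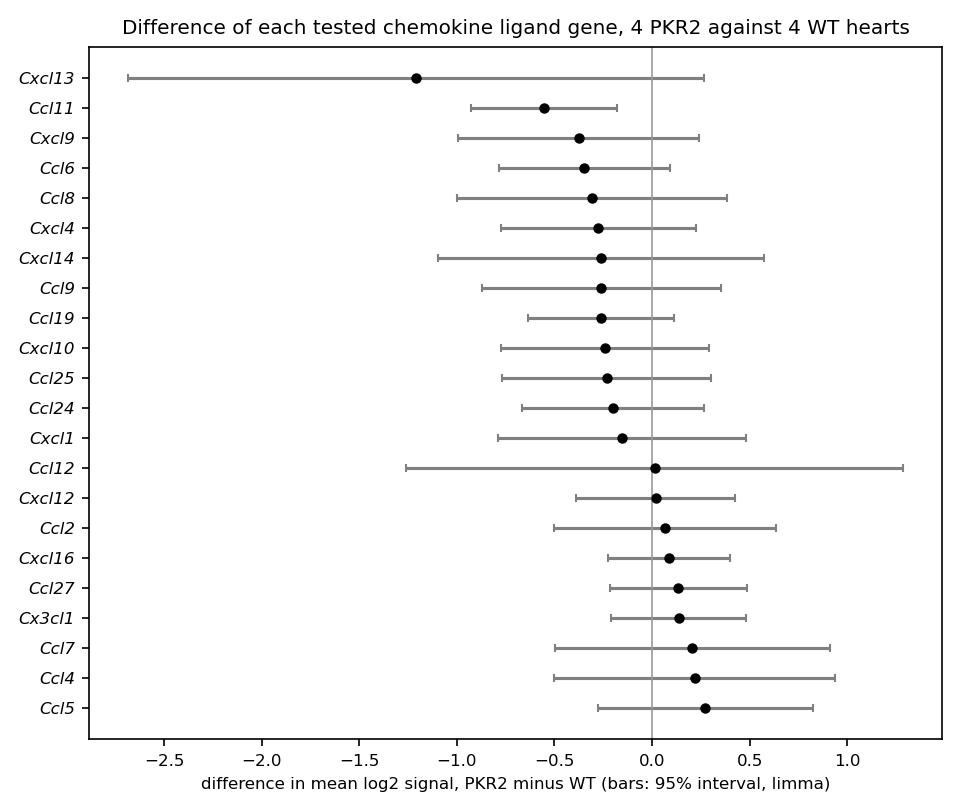
Difference in mean log2 signal (PKR2 minus WT, 4 hearts each) of each tested chemokine ligand gene, with its 95% interval from limma as a bar. The interval of Ccl11 lies wholly below 0, from -0.93 to -0.18, the widest belongs to Cxcl13, and all other intervals include 0.

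The monocyte-attracting CC ligands comprise the Ccr2 ligands Ccl2, Ccl7 and Ccl12, the related Ccl8, and the rodent myeloid ligands Ccl6 and Ccl9. Of these 6, 3 had a lower and 3 a higher mean in PKR2 hearts, and none had an unadjusted p under 0.05. Ccl6 read 1.55, 1.88, 1.40 and 1.96 in WT and 1.04, 1.71, 1.33 and 1.32 in PKR2 hearts. The Ccl6 difference was -0.35 (SE 0.20). PKR2 1 was lowest, and PKR2 2 lay among the WT arrays.

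Ccl9 read -0.28, 0.54, 0.25 and 0.71 in WT and -0.49, 0.54, 0.17 and -0.034 in PKR2 hearts. The groups differed by -0.26 (SE 0.27). Ccl2, which recruits inflammatory monocytes and was printed in 10 spots, read -0.68, -0.15, -0.61 and 0.39 in WT and -0.35, -0.45, -0.083 and 0.11 in PKR2 hearts. The difference of Ccl2 was 0.067 (SE 0.25). WT 4 was the highest array for both genes and the lowest came from different groups.

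WT 4 was also highest for Ccl7 at -1.17 and Ccl8 at -0.53. Ccl7 ranged from -2.72 to -1.17 in WT and from -2.17 to -1.73 in PKR2 hearts. Its difference was 0.21 (SE 0.31). Ccl8 ranged from -1.82 to -0.53 and from -1.98 to -1.01, with a difference of -0.31 (SE 0.31). Ccl12 had a wide spread in both groups, from -2.68 to -0.27 in WT and from -2.10 to -0.12 in PKR2 hearts, with a difference of 0.013 (SE 0.57). Ccr2, the receptor gene of Ccl2, Ccl7 and Ccl12, read -2.23, -1.51, -1.39 and -1.63 in WT and -3.17, -1.94, -1.96 and -2.04 in PKR2 hearts. Only WT 1 lay below any PKR2 array, and the difference was -0.59 (SE 0.31).

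The homeostatic CC ligands guide lymphocytes to lymphoid tissue, thymus and epithelia. Ccl19, the Ccr7 ligand of lymphoid stroma, read 1.21, 1.43, 1.49 and 1.18 in WT and 1.12, 1.28, 1.14 and 0.73 in PKR2 hearts. The highest PKR2 array lay between the WT arrays and the other 3 lay below all of them, and the difference was -0.26 (SE 0.17), or -0.20 at a second probe. Ccr7 was above background on 3 arrays and not tested.

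Ccl25, which draws thymocytes and gut lymphocytes, read -0.41, 0.34, 0.26 and -0.18 in WT and -0.62, 0.24, -0.38 and -0.15 in PKR2 hearts. The Ccl25 groups overlapped throughout, with a difference of -0.23 (SE 0.24). Ccl27, a skin-homing ligand now named Ccl27a, ranged from -0.46 to -0.20 in WT and from -0.35 to 0.11 in PKR2 hearts, with a difference of 0.13 (SE 0.16). Ccl21c, a Ccr7 ligand outside the name pattern, differed by 0.054 (SE 0.18).

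The membrane-bound ligands carry a chemokine domain on a mucin stalk that proteases release. Cx3cl1, or fractalkine, is displayed by endothelium and neurons. It read 1.63, 1.72, 1.62 and 1.87 in WT and 1.89, 1.65, 1.75 and 2.11 in PKR2 hearts, with PKR2 4 highest. The difference was 0.14 (SE 0.15), and that of its receptor gene Cx3cr1 was 0.031. Cxcl16, which also scavenges oxidised lipoprotein, read 0.17, 0.10, 0.042 and 0.22 in WT and 0.094, 0.37, 0.11 and 0.30 in PKR2 hearts. Its difference was 0.086 (SE 0.14), and 0.10 at a second probe. The PKR2 means of both genes were higher by less than 1 SE.

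Ccl5 and Ccl4 are inflammatory ligands made by T cells, NK cells and macrophages. Ccl5 read -0.016, 0.068, 0.039 and -0.80 in WT and -0.14, 0.55, 0.12 and -0.15 in PKR2 hearts. The groups differed by 0.27 (SE 0.24). WT 4 stood apart at this probe but was not the lowest WT array at the second Ccl5 probe, where it read -2.41 and the difference was 0.090. Ccl4 differed by 0.22 (SE 0.32). Of 11 T and NK cell markers 8 were tested, 6 with a higher and 2 with a lower mean, at sums of 0.994 to 1.53 in WT and 1.19 to 1.62 in PKR2 hearts.

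The interferon-induced ligands Cxcl9 and Cxcl10 attract activated T cells through Cxcr3. Cxcl9 ranged from -0.85 to 0.41 in WT and from -1.15 to -0.47 in PKR2 hearts. WT 4 was again the highest array, and the difference was -0.37 (SE 0.27). Cxcl10, whose promoter is printed above, ranged from -2.19 to -1.88 and from -2.94 to -1.86, a difference of -0.24 (SE 0.24). PKR2 1 was its lowest array, PKR2 4 also lay below the WT range, and PKR2 2 and PKR2 3 lay at its upper end.

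The interferon regulatory factor gene Irf1 differed by -0.20 and Irf7 by 0.32, the receptor gene Cxcr3 differed by -0.048, and the interferon gamma gene Ifng was above background on no array. Of 16 listed genes that induce or process chemokines 13 were tested, 7 with a lower and 6 with a higher mean, and none had an unadjusted p under 0.05.

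Cxcl1, the neutrophil-attracting ligand that was tested, ranged from -4.58 to -3.18 in WT and from -4.31 to -3.74 in PKR2 hearts. The groups differed by -0.15 (SE 0.28). The transcript of its receptor Cxcr2 was above background on 1 array, and Il6 on none. Only 3 of 9 neutrophil markers were tested, S100a8, S100a9 and Mpo. All 3 had a higher mean in PKR2 hearts (median difference 0.67). At an unadjusted limma p under 0.05 there was 1 of them, Mpo, against 2.42% of all features, and none past the adjusted threshold. Mpo was well above background on 2 WT and 4 PKR2 arrays. It entered the test only through the group where its mean was higher, so no difference is read from it. The sums of the 3 markers were 1.47 to 5.85 in WT and 1.44 to 14.8 in PKR2 hearts.

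All 24 listed receptor and decoy receptor genes were on the array and 14 were tested, 7 with a lower and 7 with a higher mean in PKR2 hearts and a median difference of -0.0022. None had an unadjusted p under 0.05 and no pair of groups was free of overlap. Ackr4 and Ccr2 had the largest differences in size. Ackr4 encodes a scavenger of Ccl19 and Ccl25. Ackr4 read -1.70, -2.80, -1.92 and -2.52 in WT hearts and -1.45, -1.19 and -1.82 on PKR2 1, 3 and 4, with PKR2 2 between WT 3 and WT 4. Its difference was 0.62 (SE 0.28). The highest arrays were PKR2 3 and PKR2 1, and WT 1 and PKR2 4 followed. Ccr1, Ccr8, Ccr10 and Cxcr1 were above background on no array.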

How the data were processed

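Total RNA of 8 hearts, 1 per array, was isolated with Tri-Reagent and Cy3-labelled, per the labels. Agilent Feature Extraction 9.5.1.1 read the images and subtracted background, per the file headers, which place probes on mm8. The deposited scanner values are spot intensity on a linear scale. The authors' deposited value table holds normalized signal rounded to whole numbers, here read as linear intensity and taken to log2. Its normalization is not given in the sources used here. Its column medians were 139 to 144, and it served as an alternative.

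Processed signal was taken to log2 and each array's 75th percentile over non-control probes subtracted; control spots and outlier-flagged spots were left out, saturated spots kept, and spots of 1 probe averaged (43379 spots, 41174 probes). Probes took RefSeq names (GRCm38.p6) by accession (24375) or symbol (8723); 934 kept the file's name and 7142 had none. Genes were represented by their brightest tested probe. The 15672 features were fitted with limma 3.58.1 in R 4.3.3 (lmFit, eBayes, no covariate), with the package data.table (version 1.17.8), adjusted by the Benjamini-Hochberg method at 0.05. The fit was tested on simulated data. The number of arrays limits the precision. The labels give 1 heart per array but no litters, so p-values measure the spread between these hearts.

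Some genes are not reported here. The ligand genes and all gene lists were chosen with earlier results of these data known. Values on every array are given for the 12 genes with the brightest probes, for genes with an unadjusted p under 0.05 or without overlap, and for Cxcl13 and other genes chosen after their values were seen. Alternatives covered background correction, scaling, the deposited values, filters, probe choice, slide, position, scan range, variance models, array weights and leaving out arrays.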

Additional observations from a re-analysis of the deposited data

Results flagged for a closer look

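Within a group of 4 arrays, 1 array stood farther from the other 3 than Dixon's 95% limit allows in 7 of 72 groups examined, where chance gives about 1 in 20 (5%). Among the ligand genes, Ccl5 read -0.80 on WT 4 against -0.016 to 0.068 on the other WT arrays. Cxcl13 read -1.42 on WT 3 against -0.33 to -0.21 on the other WT arrays, while its 2 lowest PKR2 arrays did not meet the limit. Ccl7 read -2.17 on PKR2 1 against -1.74 to -1.73 on the other PKR2 arrays.

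Among the receptor genes, Ccr2 read -3.17 on PKR2 1 against -2.04 to -1.94 on the other PKR2 arrays. Ackr1, the gene of the Duffy antigen receptor that binds many chemokines, read -2.95 on the same array against -3.68 to -3.63. Ackr3 read 2.79 on WT 2 against 3.19 to 3.25 on the other WT arrays, and 2.69 on PKR2 2 against 3.21 to 3.26 on the other PKR2 arrays.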

How the results depend on the processing

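No ligand gene passed the threshold in any of 24 alternative fits with limma; the smallest adjusted p was 0.467, shared by 7 ligands with array weights. The Ccl11 difference stayed below 0 throughout, from -0.66 to -0.22. Of 22 ligands, 5 kept their sign in every fit and within slides 5 and 6, a count not made over all features. Over all features, 0 passed in the fit reported; 1 passed with median scaling, the authors' deposited values, normexp after common scaling, detection on all 8 arrays, slide as a random block, position 4 as a covariate, a trended robust variance, or a threshold of 0.1 or 0.2; leaving out single arrays gave 0 to 1, the 1 being without PKR2 3. Features at an unadjusted p under 0.05 numbered 380, against 1649 with array weights, 938 and 785 with slide as a fixed and a random block, 590 with position 4, 244 with scan range as a block, 230 without slide 6, 173 without the single-range arrays, 718 without WT 1 and 204 without PKR2 1. Ligands with a lower mean numbered 13 of 22, 21 of 33 with no filter on dim probes, 9 with position 4, 11 without the single-range arrays, 18 with normexp after common scaling and 13 to 18 without single arrays. Detected ligands numbered 20 to 27 under other detection rules.

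Sign changes follow; unless noted, the cause was not tested. With position 4 as a covariate, which sets the PKR2 arrays against WT 1, values were Cxcl4 0.13, Ccl25 0.18, Ccl9 0.33 and Cxcl14 0.46. Array weights gave Ccl27 -0.017, Cxcl12 -0.088, Ccl4 -0.090, Ccl12 -0.26 and Cxcl1 0.0062. Without slide 6, Cxcl12 was -0.044, Cxcl14 0.0060 and Ccl8 0.072. Without the single-range arrays, Cxcl12 was -0.10, Ccl8 0.040, Ccl9 0.088 and Cxcl14 0.32. Cxcl12 was -0.014 over the mean of probes and -0.036 with scan range as a block. Median scaling gave Cxcl12 -0.043 and Ccl12 -0.048, and quantile normalization Ccl12 -0.026. Normexp gave Ccl2 -0.032, Cxcl16 -0.055, Ccl12 -0.43, Ccl7 -0.47, Ccl4 -0.68, Cxcl14 0.059 and Cxcl4 0.099, and after common scaling Cxcl16 -0.028, Ccl2 -0.034, Ccl4 -0.31, Ccl7 -0.32 and Ccl12 -0.41. A fixed slide block, resting on slides 5 and 6, gave Cxcl12 -0.057, Ccl27 -0.11, Ccl12 -0.69 and Cxcl13 0.41, and as a random block Cxcl12 -0.0078 and Ccl12 -0.23. Within slide 5, Cxcl13 was 1.19, Ccl8 0.42, Cxcl9 0.38, Cxcl10 0.017, Ccl27 -0.069 and Cxcl12 -0.32; within slide 6, Ccl24 was 0.053, Ccl25 0.025, Ccl4 -0.073, Ccl27 -0.15, Ccl2 -0.28, Ccl7 -0.56 and Ccl12 -1.66. The authors' values gave Cxcl16 -0.052. Leaving out single arrays reversed Ccl12 (-0.47 to 0.34), Cxcl12 (-0.070 to 0.17), Ccl2 (-0.071 to 0.28), Ccl4 (-0.0069 to 0.51), Ccl7 (-0.019 to 0.50) and Cxcl1 (-0.39 to 0.074). Normexp after common scaling and the fits without slide 6 or the single-range arrays were chosen after seeing the data. No paired analysis was possible because the labels give no replicate numbers to pair by; the slides that both groups shared were fitted as a block. Signals near background (Ccl4, Cxcl1) limit what can be read from the dimmest ligands.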
